A study of Mus musculus with 1479 samples.

Results

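Cluster 3 was the largest of 11 clusters of cells from the mouse urinary bladder and held 23.3% of 1479 cells. A cell belonged to it when the submitters' label gave it cluster number 3, and the clustering had used the expression values of the same cells. Its counterparts here were clusters 1, 2, 6, 7 and 8, which together held 768 cells, 736 of them in the compared groups, and which the study likewise took as fibroblasts. All cells came from adult male mice aged 10 to 20 weeks on a C57Bl6 background and were sorted singly into wells as CD31-negative cells, then sequenced by Smart-seq2, a full-length method that counts reads and not molecules.

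All cells of cluster 3 but 1 could be compared and came from 4 mouse lines on 5 plates, which gave 6 groups of plate and line. There were 99, 78 and 46 cells from PdgfrbGFP mice on plates bladder_074s, bladder_515s and bladder_881s, 37 from Acta2GFP mice on bladder_515s, 71 from C57BL6 mice on bladder_443s and 13 from PdgfraGFP mice on bladder_689s. PdgfrbGFP and Acta2GFP are transgenes in which the Pdgfrb or Acta2 promoter drives a green fluorescent protein, PdgfraGFP is a fluorescent protein knocked into Pdgfra, and C57BL6 cells carried no reporter and were sorted by antibody to a PDGF receptor. Elastase was added when Acta2GFP tissue was dissociated. The remaining cluster 3 cell came from a Cspg4dsRED mouse, in which the Cspg4 promoter drives a red protein. The labels name no animal, so the spread between groups below may hold technical as well as biological differences. Plates can be compared inside the PdgfrbGFP line, and PdgfrbGFP and Acta2GFP cells inside bladder_515s. In that second comparison line, reporter of the sort and elastase change together. In the other groups plate, sort and line cannot be told apart.

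Fibroblasts make and remodel the connective tissue of the bladder wall, from the layer beneath the urothelium to the adventitia around the muscle. They also send signals to their neighbours. Edn3, the gene named as the marker of cluster 3, encodes endothelin-3, a secreted peptide best known for acting through the receptor Ednrb on neural crest cells and their descendants. Hedgehog signals, which the urothelium is known to send to the stroma beneath it, raise Gli1 and Ptch1 in the cells that receive them, whereas Wnt signals raise genes such as Axin2, Lgr5 and Nkd1.

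The defining genes of fibroblasts were present. After each cell had been thinned to 50000 reads, all cells of cluster 3 with that depth, which was all but 2, had a read of Dcn, Col1a1, Lum and Cd34, 97.4% had one of Pdgfra and 95.6% one of Pdgfrb. Tnc, a gene of fibroblasts beneath the epithelium, had a read in 2.92% of them. Ptprc of immune cells had a read in 1 cell and Epcam of epithelium in 0, which allows a share of up to 0.875% of cells with a read when 3 counts are taken as the limit. The summed level of 14 mural markers ran from 129.9 to 242.7 reads per 500000 in cluster 3 over the 6 groups and from 142.3 to 394 in the compared cells, and that of 12 endothelial markers from 49.2 to 94.6 against 54.4 to 103.1. The sums of 12 immune, 12 urothelial, 7 mesothelial and 8 skeletal muscle markers overlapped between the classes, with medians of 20.3, 3.598, 1.08 and 1.84 in cluster 3 against 17.5, 6.47, 3.57 and 2.25. For 10 Schwann and glial markers the sum was higher in cluster 3 in 6 of 6 groups, at a median of 38.6 against 22.8. At 0 in all cells of cluster 3 in these groups were 1 of the immune, 3 of the Schwann, 1 of the mesothelial and 5 of the skeletal muscle markers. Mbp was the 1 Schwann gene expressed enough to be compared, at 37.5 ± 12.6 against 24.3 ± 8.03, and its part in the other differences was not tested.

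Cells of cluster 3 had a median of 248824 reads and the compared cells 236026. In each of the 6 groups the median cell of cluster 3 had more genes with a read than the median compared cell, from 4000.5 against 3723 in PdgfrbGFP cells of bladder_515s to 4434 against 2974 in PdgfraGFP cells. In this last group the compared cells were also shallower, with a median of 115200 reads against 234628. Spike-in RNA took 0.413% to 1.49% of reads in the median cell of cluster 3 and 0.495% to 1.84% in the compared cells, lower in cluster 3 in every group. The part of these gaps in depth and spike-in share in the differences below was not tested beyond the alternatives with thinned cells and with cells of like depth.

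Throughout, the level of a gene is the mean over cells of its reads per 500000 reads of mouse genes, and a difference is log2((level in cluster 3 + 1)/(level in the compared cells + 1)) inside a group of plate and line, summarised as the median over groups. This scale understates the difference of genes with low levels. Because the clusters were cut from the same values, no test was made between clusters, and every difference is a description of how far it recurred over the 6 groups. Values written with ± are means and SDs over these groups, n = 6.

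Edn3 was expressed in every group of cluster 3 above the range of the compared cells. Its level was 278.4 in PdgfrbGFP cells of bladder_074s, 180.5 in those of bladder_515s, 325.3 in those of bladder_881s, 187.7 in Acta2GFP cells, 286.3 in C57BL6 cells and 258.8 in PdgfraGFP cells. The compared cells of the same groups had 57.03, 61.6, 55.2, 58.4, 84.6 and 53.4. The lowest group of cluster 3 was therefore above the highest compared group, and both groups of plate bladder_515s were the lowest of cluster 3. The means were 252.8 ± 57.5 and 61.7 ± 11.6, a ratio of 4.10 and a median log2 difference of 2.00 ± 0.40.

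Edn3 did not mark cluster 3 alone. By cluster, its mean level over the 6 groups was 252.8 in cluster 3, 140 in cluster 6, 64.3 in cluster 1, 25.2 in cluster 8 and 20.9 in cluster 7. Cluster 2 was present in 4 of the groups, none of them from bladder_515s, and had 151.6 there against 287.2 in cluster 3. The ranges of clusters 2 and 6 overlapped that of cluster 3 and each other, and cluster 6 had 213.5 against 180.5 in PdgfrbGFP cells of bladder_515s. Clusters 7 and 8 did not differ beyond their spread. In C57BL6 cells cluster 2 had 260.9 against 286.3 in cluster 3. Cluster 9, which came almost wholly from Cspg4dsRED mice on another plate, had 116.6, and cluster 11, most of whose cells were Acta2GFP cells, had 61.4 in these.

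Counted per cell after thinning, 76.4% of cluster 3 cells had an Edn3 read (exact Clopper-Pearson 95% interval 71.5 to 80.8). Between groups the share ran from 54.1% (36.9 to 70.5) in Acta2GFP cells and 57.9% (46.02 to 69.1) in PdgfrbGFP cells of bladder_515s to 95.7% (85.2 to 99.5) in PdgfrbGFP cells of bladder_881s. Pooled over plates and lines, whose make-up differed between clusters so that no order is read from these shares, it was 60.4% in cluster 6, 56.3% in cluster 2, 56.2% in cluster 1, 39.5% in cluster 7 and 32.4% in cluster 8. In cluster 10, the mural cells of the study, 21.6% (14.7 to 29.8) had a read at a median of 128369 reads per cell before thinning. The Edn3 level of cluster 10 ran from 0.849 in PdgfrbGFP to 81.4 in Acta2GFP cells of bladder_515s over 5 groups, so that this share is not a plain background. Intervals and limits of this kind cover counting error only, as reads without molecular identifiers are not independent molecules.

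Edn3 lies on chromosome 2 at 174760619 to 174784042, plus strand, in GRCm38. Ackr2, which was also among the largest differences, lies on chromosome 9 at 121898355 to 121911074, plus strand. The 250 bases upstream of each start are shown to place both genes, with CG pairs in capitals.
Edn3 (chr2:174760369-174760618): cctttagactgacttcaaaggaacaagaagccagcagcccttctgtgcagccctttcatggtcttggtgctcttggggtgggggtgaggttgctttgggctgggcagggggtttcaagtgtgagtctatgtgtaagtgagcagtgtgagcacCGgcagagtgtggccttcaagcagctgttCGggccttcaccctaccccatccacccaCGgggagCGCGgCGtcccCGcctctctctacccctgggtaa
Ackr2 (chr9:121898105-121898354): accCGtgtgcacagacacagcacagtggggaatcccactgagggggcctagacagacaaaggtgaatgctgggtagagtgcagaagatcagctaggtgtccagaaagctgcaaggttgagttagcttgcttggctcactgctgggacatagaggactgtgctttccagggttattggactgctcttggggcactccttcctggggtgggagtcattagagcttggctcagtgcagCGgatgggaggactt
The Edn3 window held 7 CG pairs and the Ackr2 window 2, and 46.3% and 81.2% of 32851 such windows in the RefSeq table for GRCm38.p6 held at least as many. Neither held TATAAA on either strand, which was present in 12.4% of windows.

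**Figure D1:**
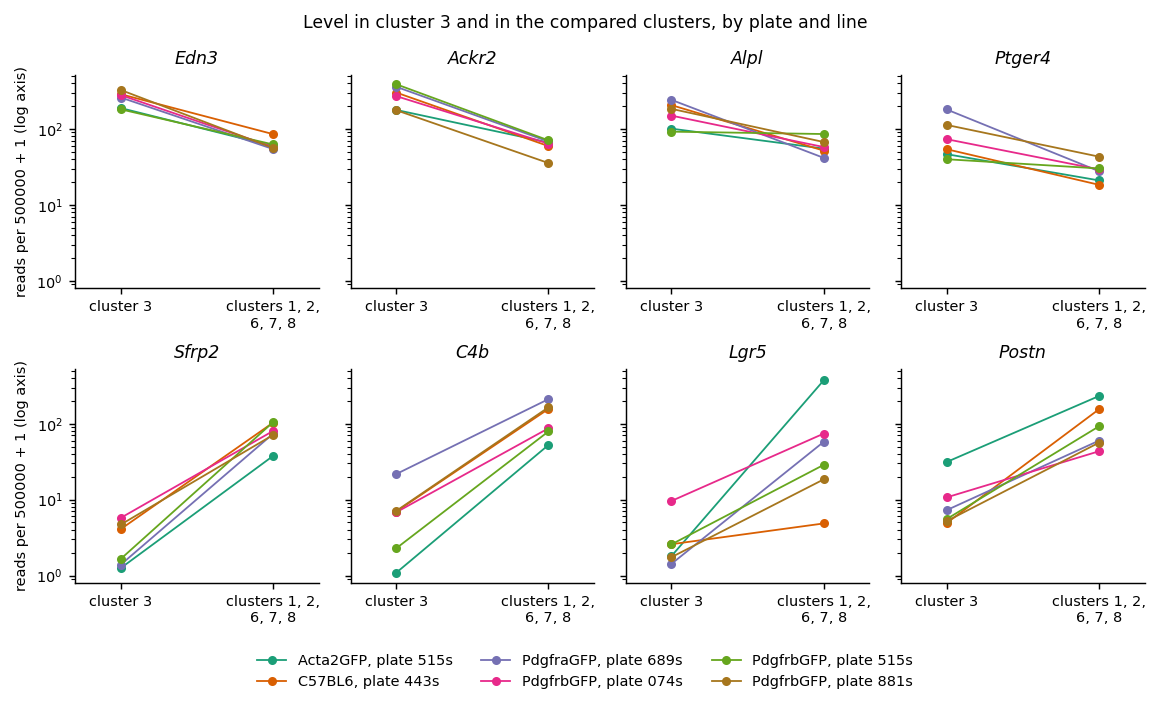
Levels of 8 genes in cluster 3 and in the pooled cells of clusters 1, 2, 6, 7 and 8 (reads per 500000 plus 1, log axis), with 1 line for each of the 6 groups of plate and line. Every line falls to the right for Edn3, Ackr2, Alpl and Ptger4 and climbs for Sfrp2, C4b, Lgr5 and Postn, and the Edn3 points of cluster 3 lie between 180.5 and 325.3 reads per 500000.

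Across the 9581 genes with an average level of at least 5, 28 were higher in cluster 3 in every group with a median difference of at least 2-fold, or 0.292%, and 1.5% were lower by the same rule. With 10 added to the levels instead of 1, these shares were 0.115% and 0.668%. Without the fold limit, 3.25% of genes were higher in every group and 517 (5.4%) lower. The median difference of all genes was -0.04. The balance of higher and lower genes without the fold limit depended on the scaling. It was 4.37% higher and 3.59% lower with sums of counts scaled by TMM, 4.325% and 3.99% scaled by the median of ratios, and 4.31% and 4.19% with the median gene put at 0. At the limit, Rmc1 lay just inside at 1.01 and the unnamed gene ENSMUSG00000106890 just outside at 0.96, and on the lower side Plxdc1 lay at -1.01 and Htra1 at -0.98.

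Among the genes that were higher were receptors. Ackr2, a decoy receptor that clears inflammatory chemokines, was at 176.1, 286.1 and 388 (lowest, median and highest group) in cluster 3 and at 34.7, 64.3 and 69.98 in the compared cells, so that the groups did not overlap, with a ratio of means of 4.66. Ptger4, the EP4 receptor for prostaglandin E2, was at 38.98, 62.8 and 180 against 17.4, 27.6 and 42.3. Its groups overlapped, and the highest value came from the 13 PdgfraGFP cells. Adcy7, an adenylyl cyclase that makes the messenger cAMP, was at 35.3, 87.1 and 110.5 against 11.2, 26.6 and 39.1, higher in each group by a difference of at least 1.20.

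Alpl, the tissue-nonspecific alkaline phosphatase, was at 91.3, 166.3 and 241.1 against 40.7, 55.5 and 84.9, without overlap. Enpp1, which makes pyrophosphate from ATP outside the cell and was chosen after its values were seen, was at 113.96, 154.2 and 276.3 against 53.7, 71.02 and 90.8. Entpd2, an ATP-hydrolysing ectoenzyme, was higher in every group by less than 2-fold, at 983 ± 108.2 against 656 ± 61.8. Nt5e, which turns AMP into adenosine, was lower by the rule, at 1.91 ± 1.28 against 35.8 ± 37.1.

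Aatk, a kinase gene of neurons and other cells, had the largest median difference, 2.66 ± 1.11, at 26.1 ± 8.55 against 2.56 ± 1.54. Faim2, which encodes an inhibitor of Fas-mediated death, followed with 2.48 ± 1.16, at 50.7 ± 25.2 against 9.34 ± 6.24, and the groups of neither gene overlapped. For both genes the median cell of cluster 3 had 0 reads per exon base, so that these levels came from a part of the cells. Secreted factors were Bmp6, a BMP ligand, at 38.5 ± 16.3 against 13.7 ± 3.47, and Stc2, stanniocalcin-2, at 317.8 ± 39.99 against 148.4 ± 41.3. Tgfbrap1, Lrrc8d, Usp35, Galnt7 and Gpr20 were also among the largest differences, between 1.29 for Gpr20 and 2.33 for Tgfbrap1. In their lowest groups these differences were only 0.34, 0.62, 0.14, 0.50 and 0.05, in the same order. Levels were low for Usp35, at 9.18 against 3.10, and Galnt7, at 9.95 against 3.22. The median cell of cluster 3 had 0 reads per exon base for all of these but Lrrc8d. Aatk, Bmp6, Ptger4, Tgfbrap1, Lrrc8d and Galnt7 overlap genes on the opposite strand in GENCODE M21, and since no strand setting is stated for the counting, reads from these partners cannot be told apart. Among the lower genes named below the same holds for Lgr5, Aox3, Ptgfr, Thbs1, Adm, Penk and others.

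Genes that were lower in cluster 3 had larger differences. Chodl, a C-type lectin-like membrane protein, had 0, 0.239 and 1.303 in cluster 3 and 45.8, 56.97 and 126.5 in the compared cells, a median difference of -5.48 ± 0.73. Sfrp2, a secreted binder of Wnt proteins, had 0.258, 1.88 and 4.77 against 36.7, 76.1 and 103.9, a difference of -4.78 ± 0.90. Gm26771, annotated antisense to Sfrp2 and overlapping it, was lower too, at 0.346 ± 0.326 against 14.2 ± 5.2, and its reads may belong to Sfrp2. C4b, complement component 4, had 0.0862, 5.89 and 20.7 against 51.4, 120.7 and 210, a difference of -4.51 ± 0.86. For each of these 4 genes every group of cluster 3 was below every compared group. Sult1e1, an oestrogen sulphotransferase, differed by -4.00 ± 1.31, Aox3, an aldehyde oxidase, by -3.74 ± 0.71, and Steap4, a metalloreductase, by -3.58 ± 1.72. The pooled difference of Sult1e1 came with cluster 8, at 187.8, as clusters 1, 2, 6 and 7 had 0.924, 3.53, 6.07 and 2.17 against 1.58 in cluster 3.

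Gja1, the gap junction protein connexin 43, had 0, 1.09 and 4.16 against 10.6, 23.4 and 35.9. Postn, periostin, had 3.92, 5.41 and 30.3 against 42.3, 75.03 and 230, and the highest value of either class came from Acta2GFP cells. Clusters 7 and 8 held most Postn, at 106.97 and 255.9, while clusters 1, 2 and 6 had 5.16, 8.58 and 9.18 and cluster 3 had 9.83. Spon1, the matrix protein F-spondin, had 3.31 ± 1.61 against 49.9 ± 30.8. Receptors were Avpr1a of vasopressin at 1.97 ± 2.85 against 24.4 ± 17.8, Ptgfr of prostaglandin F2α at 3.19 ± 3.06 against 27.4 ± 10.4, and Piezo2, a mechanosensitive channel, at 0.355 ± 0.515 against 15.1 ± 9.51. Piezo1, its relative, was higher in cluster 3 in every group, at 57.99 ± 17.1 against 31.3 ± 24.7. Trf, transferrin, had 3.77 ± 3.73 against 28.3 ± 16.2.

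**Figure D2:**
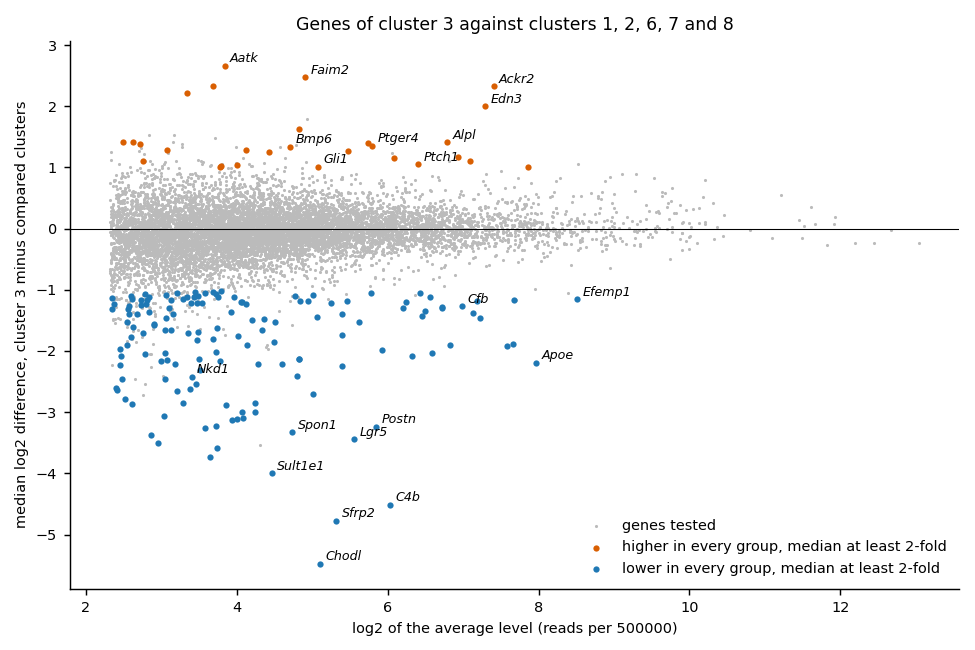
Median log2 difference between cluster 3 and clusters 1, 2, 6, 7 and 8 (y) for each of 9581 genes against the log2 of its average level (x, reads per 500000), with genes past the rule in orange (28 higher) and blue (1.5% of genes, lower). The blue points reach -5.48 for Chodl, farther from 0 than the highest orange point, 2.66 for Aatk.

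Of the 36 gene lists, 24 held a member past the rule. Of the 386 measured genes on them, 5 were higher and 35 lower by it, where 0.292% and 1.5% of all genes were. As the lists were chosen with earlier results of these data known, these counts are a description only. Of 9 hedgehog members, 2 were higher by the rule and 0 lower, where 0.292% of all genes were. Ptch1, the main hedgehog receptor and a target of its own pathway, was at 60.8, 83.2 and 237.8 against 29.3, 50.2 and 111.3. Gli1, the transcription factor most directly raised by hedgehog, was at 17.5, 44.8 and 79.7 against 6.92, 24.3 and 36.3. The Gli1 gene shares bases with Arhgap9 on the opposite strand, so that reads of this partner cannot be told apart. The ranges of Ptch1 and Gli1 overlapped between classes, and the highest compared values, 111.3 and 36.3, both came from PdgfraGFP cells. Inside each of the 6 groups cluster 3 was above the compared cells for both genes. The median differences were 1.05 ± 0.44 and 1.01 ± 0.34, close to the 2-fold limit, so that settings below returned 0, 1 or 2 members, and 1 passed without the Acta2GFP group or without PdgfrbGFP cells of bladder_515s or of bladder_881s. Boc, Gas1, Gli2, Gli3, Smo, Hhip and Foxf1 did not pass, with median differences from -0.60 for Gli3 to 0.41 for Boc. The median of the 9 members was 0.16.

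Of 5 measured Wnt response genes, 3 were lower by the rule, where 1.5% of all genes were, and the median was -1.66. Lgr5, a receptor of R-spondins and a Wnt target, had 0.426, 1.19 and 8.60 in cluster 3 against 3.85, 42.2 and 371. The value of 371 came from the compared Acta2GFP cells and that of 3.85 from C57BL6 cells. Cluster 6 was low too, with Lgr5 at 4.01 against 2.29 in cluster 3 and Sfrp2 at 1.64 against 2.15. Lgr5 was at 275.2 in cluster 7, 48.3 in cluster 8 and 16.9 in cluster 1. Against cluster 2 its median difference was 0.07. Nkd1, a feedback inhibitor of Wnt signalling, had 2.78 ± 1.58 against 18.4 ± 6.83, and Nkd2 10.8 ± 5.97 against 20.3 ± 8.25. Axin2 had 4.06 ± 4.32 against 8.91 ± 12.1 and Znrf3 5.83 ± 3.79 against 4.86 ± 3.75, and neither kept its sign. Of 5 secreted Wnt antagonists Sfrp1, Sfrp2 and Sfrp4 were lower by the rule, beside 1.5% of all genes, Sfrp1 at 47.4 ± 13.1 against 127.6 ± 45.2 and Sfrp4 at 6.99 ± 4.78 against 48.6 ± 33.6. Frzb and Dkk3 did not pass, at -0.50 and -0.20. Among ligands Wnt2 was lower in every group by less than 2-fold, at 124.1 ± 19.3 against 191.9 ± 26.2, and 0 of 5 passed. The other ligands, Wnt2b, Wnt5a, Wnt5b and Wnt9a, had both signs, and the median of the 5 was 0.30.

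Of 10 complement members, C4b, C2 and Cfb, whose proteins take part in cleaving C3 or C5 and whose genes lie within chromosome 17 between 34728380 and 34898265, were lower by the rule, beside 1.5% of all genes, and Cd55, a protein that shields cells from complement, was higher in every group by less than 2-fold. C2 had 9.05 ± 6.10 against 55.3 ± 13.9 and Cfb 75.5 ± 35.3 against 177.4 ± 32.2, neither with overlap. Cd55 had 600 ± 96.4 against 344.6 ± 30.6, also without overlap. The genes C2 and Cfb share bases with Gm20547 on their own strand, and the part of this in their counts was not tested. C3 had 243.1 ± 116.5 against 431 ± 123.1, lower in all but 1 group. Serping1, C1s1, C7 and C1ra, which are made at high levels by fibroblasts, had differences between -0.18 and -0.02.

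Among BMP ligands Bmp6 was higher by the rule, while Bmp3 at 2.72 ± 1.51 against 15.5 ± 5.44 and Gdf10 at 119.4 ± 28.4 against 287.7 ± 172.98 were lower by it, of 6 measured, where 0.292% and 1.5% of all genes were. Bmp4 was lower in every group, by a median of only -0.26. In the FGF list 0 of 7 members were higher by the rule and 2 lower, with a median of 0.12. Fgf10, a ligand for epithelial growth, had 1.01 ± 1.29 against 10.1 ± 6.43, Fgfr2 had 1.98 ± 2.48 against 8.95 ± 3.16, and Fgf7 had 12.9 ± 7.31 against 27.6 ± 9.05, which was lower in every group without reaching the fold. Fgf2, Fgf9, Fgfr1 and Fgfr3 had positive medians, from 0.12 for Fgf2 to 1.33 for Fgfr3, and both signs between groups. Fst, which binds activins, had 3.601 ± 3.08 against 13.04 ± 7.58. Tgfbr2, the type II receptor of TGF-β, was higher in every group at 764 ± 264.6 against 474 ± 135.6, and 0 of 12 members of its list passed.

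Of 11 prostaglandin genes 1 was higher and 2 were lower by the rule, where 0.292% and 1.5% of all genes were. Beside Ptger4, which was higher, Ptgfr and Hpgd, the enzyme that inactivates prostaglandins, were lower, Hpgd at 10.1 ± 5.396 against 30.8 ± 8.51. The synthesis genes Ptgs2, Ptges and Ptgis did not pass, at -0.58, -0.23 and 0.42, nor did the receptors Ptger1 and Ptgir, at -0.64 and 0.28. Of 12 vasoactive genes 2 were lower by the rule and 0 higher. Adm, the vasodilator adrenomedullin, was at 8.64 ± 4.53 against 36.3 ± 15.3 and Ramp1, a partner of the CGRP receptor, at 4.83 ± 4.45 against 22.7 ± 10.2. In the endothelin list Edn3 was the 1 member of 4 past the rule. Ece1, which cuts endothelin precursors into active peptides, was at 136.5 against 128.6, and Ednra, the endothelin-1 receptor, at 8.41 against 5.79, neither with the same sign in every group.

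**Figure D3:**
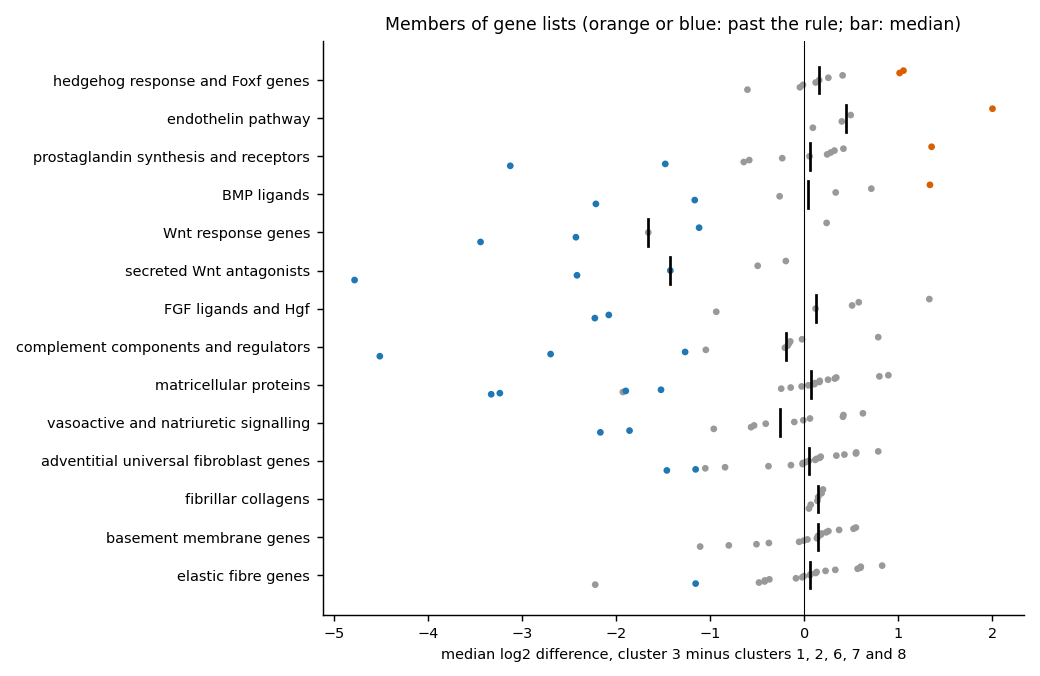
Median log2 difference between cluster 3 and the compared clusters (x) for each measured member of 14 gene lists (y), with members past the rule in orange (higher) or blue (lower), other members in grey and a bar at each list's median. Hedgehog response genes carry 2 orange points up to 1.05 and no blue point, whereas the medians of the Wnt response genes and secreted Wnt antagonists lie at -1.66 and -1.42.

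Of 6 fibrillar collagens 0 passed the rule, and Col1a1, Col1a2 and Col3a1 had differences of 0.18, 0.07 and 0.15. Of 17 basement membrane genes 0 passed, although Lama2, Lamb2 and Nid1 were higher in every group by 0.15 to 0.37. Of 9 network collagens 2 were lower by the rule, beside 1.5% of all genes. Col6a3 was at 87.2 ± 31.1 against 204.1 ± 84.2 while its partners Col6a1 and Col6a2 had 0.11 and 0.23, and Col12a1 was at 15.2 ± 10.1 against 68.8 ± 18.6. Of 19 elastic fibre genes 1 was lower by the rule, with Fbln2 higher in every group by less than 2-fold at 954 ± 180.5 against 528 ± 97.2 and Efemp1 lower at 207.8 ± 90.3 against 521 ± 94.98. Among 12 small proteoglycans Fmod alone was lower by the rule, at 57.7 ± 25.5 against 152.99 ± 80.2, and Bgn higher in every group by 0.35.

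Matricellular proteins, which sit in the matrix and modulate cells, went both ways. Postn, Spon1, Cilp and Thbs1 were lower by the rule, of 18 measured and beside 1.5% of all genes, Cilp at 43.7 ± 28.7 against 183.8 ± 106.2 and Thbs1 at 23.4 ± 13.3 against 74.6 ± 32.6. Smoc2 was higher in every group without overlap, at 1523 ± 236.2 against 833 ± 16.3, and Spon2, a relative of Spon1, was higher in every group at 805 ± 307.5 against 449 ± 181.8. Of 21 matrix proteases and inhibitors Adamts15 was lower, and Adamtsl3, at 133.1 against 69.5, was higher in every group without reaching 2-fold.

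Of 19 genes known from adventitial fibroblasts of many organs, 0 were higher and 2 lower by the rule, where 1.5% of all genes were lower, and the median was 0.05. Pi16 was higher in every group, at 2826 ± 410 against 1946 ± 312.997, Dpt, Clec3b, Mfap5 and Ly6a had differences between -0.14 and 0.34, and Dpp4 was at 7.85 against 12.4 with both signs. The genes that were lower were Efemp1 and Penk, the precursor of enkephalins, Penk at 68.97 ± 22.05 against 231.01 ± 75.1. Among lipid genes Apoe was lower by the rule, with 50.2, 72.9 and 133.6 against 126.5, 448 and 574, while Apod, Pltp and Lrp1 were higher in every group by 0.84, 0.67 and 0.39. Kcnn3, a calcium-activated potassium channel of bladder interstitial cells, was higher in every group at 302.5 ± 126.8 against 175.97 ± 73.9. Pdgfrb was higher in every group at 275.5 ± 61.9 against 188.5 ± 66.2, and Pdgfra was at 316.1 against 320.9.

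Of 8 IGF, 13 axon guidance and 5 PDGF genes 0 passed, although Slit3 and Sema3d, secreted guidance factors, were higher in every group by 0.50 and 0.69. The median of the 13 axon guidance genes was -0.43. As 0.292% and 1.5% of all genes were higher and lower by the rule, counts of 0 in lists of this size say little about their members. Of 18 urogenital transcription factors Isl1 alone passed, lower at 2.61 ± 1.96 against 9.04 ± 4.60, and of 4 Hox genes, 9 retinoid genes and 9 cell cycle genes 0 did. Of 23 immediate-early genes, which dissociation is known to raise, Socs3 was lower and the median was -0.26. Of 15 heat shock genes and 25 respiratory genes 0 passed, with medians of -0.11 and -0.10. The summed level of the immediate-early genes was lower in cluster 3 in every group but C57BL6, where it was 7648 against 6811. Steroid-related genes contributed Mt2, a metallothionein, and chemokines Cxcl1, both lower. Kdr and Flt1, receptors of VEGF and markers of endothelium, were lower by the rule at 1.73 ± 1.3045 against 9.93 ± 4.96 and 0.851 ± 0.727 against 10.3 ± 6.13, while Pecam1 was at 8.33 against 8.95 and Tek, the angiopoietin receptor, was higher in every group at 55.6 ± 13.004 against 28.2 ± 7.99.

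**Figure D4:**
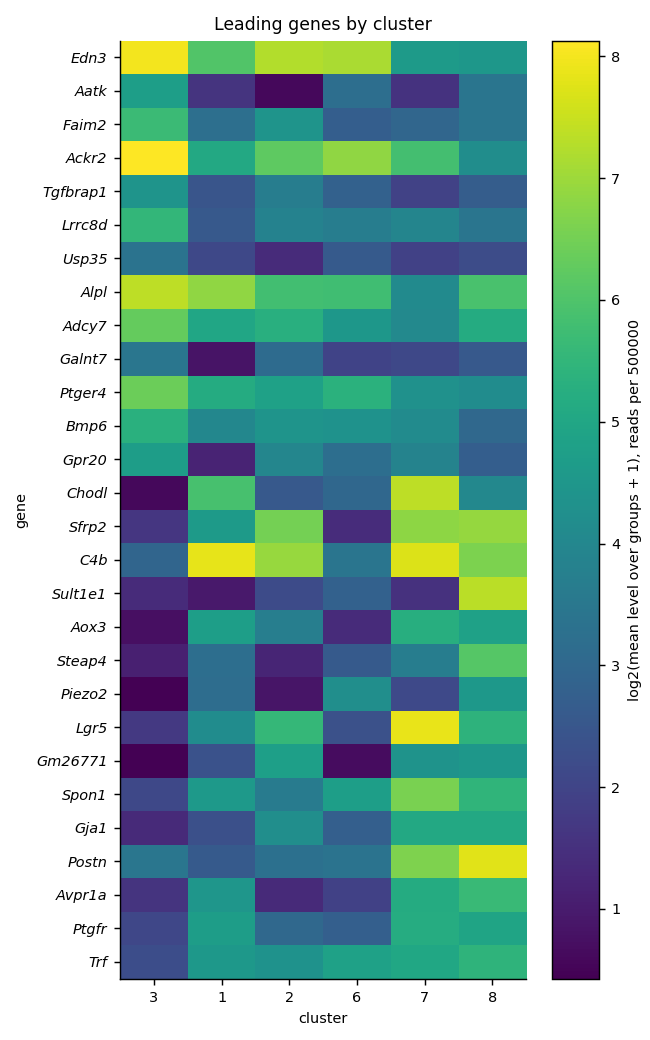
Mean level over groups, as log2(reads per 500000 + 1) on the colour scale, of 28 genes with the largest differences (rows) in clusters 3, 1, 2, 6, 7 and 8 (columns). Sfrp2 and C4b are low in clusters 3 and 6, at 2.15 and 6.66 in cluster 3, and cluster 6 differs from cluster 3 mainly in the upper rows.

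Against single clusters, some of the largest differences recurred, such as Aatk against clusters 1, 2, 7 and 8 and C4b against clusters 1, 2 and 7. The genes counted below were chosen against the pool of these clusters, so their recurrence is partly fixed by that choice. It also depends on the number of cells in each cluster, and no share of all genes stands beside these counts. Of the 15 genes that were lowest against the pooled clusters, 0 were below cluster 6 in every group, with a median difference of -0.08. For 3 of them the median was past 2-fold, Trf at 3.77 against 27.7, Spon1 at 3.31 against 25.8 and Chodl at 0.498 against 7.04. Postn had a median of 1.35 in the other direction and was higher than in cluster 6 in 4 of 6 groups. C4b was at 6.66 in cluster 3 and 9.79 in cluster 6, and Sfrp2 at 2.15 and 1.64. All 13 of the higher genes counted here had a median above cluster 6 by at least 2-fold, 6 of them in every group. The largest differences in favour of cluster 3 were Tspan18, a tetraspanin, at 131.2 ± 58.7 against 14.02 ± 17.9, Olfml2b, a matrix protein, at 105.005 ± 26.7 against 18.7 ± 23.3, Faim2, Tmem100 and Rmc1. Cluster 6 had more Fibin, at 71.5 ± 14.7 against 7.45 ± 7.33, Adm, at 62.9 ± 36.2 against 8.64 ± 4.53, and P2ry1, an ADP receptor, at 33.1 ± 19.8 against 6.43 ± 7.19, and Mrvi1 and Gprc5c followed.

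Against cluster 7, 11 of the 15 lower genes were lower in cluster 3 in every group. Chodl was at 0.498 ± 0.598 against 172.4 ± 62.3, Sfrp2 at 2.15 ± 1.95 against 116.7 ± 33.6, C4b at 6.66 ± 7.36 against 210 ± 107.5, and Aox3 and Thsd4 had median differences of -4.78 and -4.51. In the other direction C1qtnf3, a secreted C1q and TNF related protein, was at 486 ± 210.8 against 14.3 ± 13.4, Heyl, a Notch target, at 92.4 ± 64.4 against 2.47 ± 3.83 and Cpne7 at 29.9 ± 12.4 against 1.13 ± 2.02. Edn3 was at 252.8 ± 57.5 against 20.9 ± 20.8. Lgr5 was lower than in cluster 7 in 6 of 6 groups, at 2.29 ± 3.13 against 275.2 ± 553, the highest group of cluster 7 being at 1402.

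Cluster 8 had Sult1e1 at 187.8 ± 160 against 1.58 ± 1.43 in cluster 3, and more Sfrp2 at 140 ± 100.8, Avpr1a at 52.96 ± 29.6, Pdlim4 at 67.3 ± 34.4 and Cp, the copper carrier ceruloplasmin, at 46.8 ± 28.6. Cluster 3 had more Ackr2, at 278.9 ± 89.3 against 17.8 ± 14.7, Aatk, Cntn4, Hspa12b at 49.1 ± 13.5 against 4.87 ± 4.65 and Cd40, a TNF receptor, at 19.7 ± 11.5 against 2.16 ± 2.47. Of the 13 higher genes, 11 were above cluster 8 in every group.

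Of the 15 genes lowest against the pooled clusters, 5 were lower than in cluster 1 in every group and 2 lower than in cluster 2. Against cluster 1, cluster 3 had more Pla1a, a phospholipase, at 78.1 ± 19.5 against 3.16 ± 4.33, Ltbp2, a matrix protein of microfibrils, at 41.4 ± 30.5 against 1.96 ± 2.85, Faim2, Aatk and D630003M21Rik. It had less C4b, at 6.66 ± 7.36 against 227.99 ± 131.6, Chodl, C2 at 9.05 ± 6.10 against 96.9 ± 52.7, Asz1 and Tmem176a. Alpl was above cluster 1 in 4 of 6 groups. Cluster 2 could be compared in 4 groups, and its cells had a median of 109301 reads and a mitochondrial share of 2.36% against 1.11% in cluster 3. Fgfr3, an FGF receptor, was at 47.8 ± 21.9 against 0.691 ± 0.9495 in cluster 2 (n = 4), and Cant1 at 99.5 ± 35.1 against 5.96 ± 4.57, followed by Fads2, Aatk and Aif1l. Cluster 2 had more C4b, Lrig1, a brake on growth factor receptors, at 40.1 ± 36.3 against 5.201 ± 7.90, Rab4a, Fam178b and Taf13. The share of the depth of cluster 2 in these values was not tested.

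The genes most like Edn3 were sought over 36 groups of plate, line and cluster, which share libraries and depth. Fancc (Pearson r = 0.72), Cd55 (0.71), Ndufa4l2 (0.70), Prn (0.70) and Smoc2 (0.68) followed it most closely. The levels of these genes in cluster 3 and the compared cells were 95.8 and 54.5 for Fancc, 62.6 and 48.1 for Ndufa4l2 and 36.02 and 24.5 for Prn. Genes at the other end were Apoe (-0.66), Inmt (-0.65), Zbtb20 (-0.61), Bok (-0.60) and Steap4 (-0.60). These correlations are across groups that share their source and are given as a description.

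The cells of cluster 3 differed among themselves in Edn3. Among 6855 genes ranked by how far the variance of log2(reads per 500000 + 1) within groups exceeded the median variance of genes of like level, over the thinned cells of the 6 groups, Ackr2 came first with an SD of 3.48 where genes of its level had 2.41, followed by Thbs2 at 2.81 against 1.42 and Edn3 at 3.41 against 2.41. For Ackr2 the 10th percentile of cells was at 0, the median at 230 and the 90th percentile at 656, and for Edn3 at 0, 160 and 700. C1qtnf3, Tgm2, a transglutaminase, Kcnn3, Ccn1 and Stc2 completed the 8 most variable genes, of which Ackr2, Edn3 and Stc2 were higher in cluster 3 by the rule. Like level meant the same 1 of 20 bins of mean log2 level. Thbs2, C1qtnf3, Kcnn3, Ccn1 and Stc2 shared a bin that spanned at least 7.03 to 8.36. How far this wide bin set their ranks was not tested. Among the 8 most variable genes the strongest correlation over cells was 0.30, between Kcnn3 and C1qtnf3, and that between Edn3 and Ackr2 was 0.08. In counts this sparse, weak correlations of this kind are no finding. Depth correlated with Edn3 at a Spearman rho of 0.19 and with Ackr2 at -0.01 over these cells. Both values pool the plates, which differed in depth and in Edn3, so that plate and depth are mixed in them.

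The abundance of cluster 3 among clusters 1, 2, 3, 6, 7 and 8 differed between plates. It was 50.98% (78 cells, exact 95% interval 42.8 to 59.1) in PdgfrbGFP and 50.7% (37 of 73, 38.7 to 62.6) in Acta2GFP cells of bladder_515s, which were sorted by different reporters onto 1 plate. In PdgfrbGFP cells of the other plates it was 28.4% (23.7 to 33.4) on bladder_074s and 21.3% (16.03 to 27.4) on bladder_881s. It was 42.8% (35.1 to 50.7) in C57BL6 cells and 10.6% (5.75 to 17.4) in PdgfraGFP cells. In Cspg4dsRED cells it was 0 of 25 on bladder_352s, which allows a share of up to 12% when 3 counts are taken as the limit and has an exact upper bound of 13.7%, and 1 of 8 on bladder_689s. The same line thus gave different shares on different plates, and sort and animal cannot be told apart from plate. When all fibroblast clusters were taken as the whole, the Acta2GFP share was 31.6%, as most cells of cluster 11 were Acta2GFP cells.

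**Figure D5:**
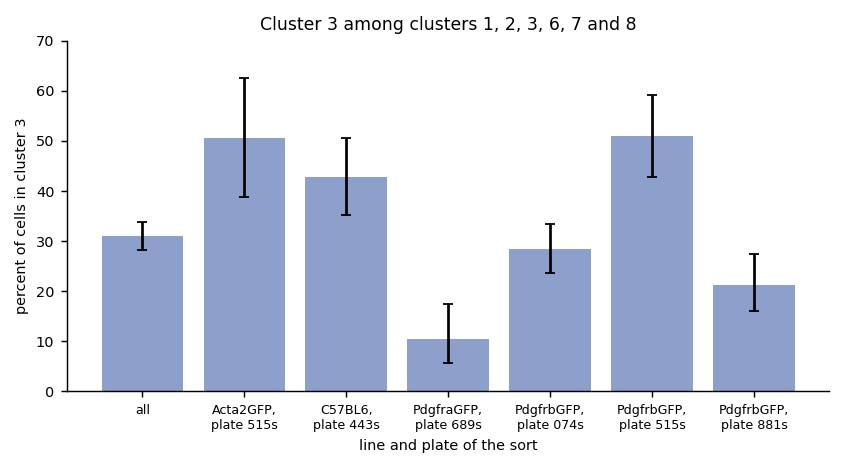
Share of cells in cluster 3 among the cells of clusters 1, 2, 3, 6, 7 and 8 (y, percent) for all cells and for the 6 groups of line and plate compared here (x), with bars from 0 and exact 95% intervals for counting error. Both lines of bladder_515s stand near 51%, and PdgfraGFP cells are lowest of the 6 groups at 10.6%.

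Inside cluster 3, levels differed between lines and between plates. Between Acta2GFP and PdgfrbGFP cells of bladder_515s, 17.5% of 8947 genes differed by at least 2-fold, 812 higher and 751 lower in Acta2GFP cells. Between plates of PdgfrbGFP cells the share was 10.6% for bladder_074s against bladder_881s, 21.7% for bladder_074s against bladder_515s and 27% for bladder_881s against bladder_515s. In the last pair of these contrasts most of the genes were lower on bladder_515s, with 1581 higher and 432 lower on bladder_074s and 1884 higher and 636 lower on bladder_881s. The median cell of cluster 3 had 109038 reads on bladder_515s, 288221 on bladder_074s and 421323 on bladder_881s in this line, and the part of this gap was not tested. Each group is 1 sample here, so these values have no replicate check and cover sampling of few cells too. On bladder_515s, the plate with both sorts, Pdgfrb was at 386 in PdgfrbGFP and 259.6 in Acta2GFP cells of cluster 3. Acta2 was at 85.5 in Acta2GFP and 62.5 in PdgfrbGFP cells of this plate and at 84.8 in PdgfrbGFP cells of bladder_881s, and Pdgfra was at 189.5 in PdgfraGFP cells and between 310 and 375 in the other groups.

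The genes with the largest ratio in these contrasts were mostly low ones. In Acta2GFP cells of bladder_515s Arc, an immediate-early gene, was at 25.3 against 0.0857 in PdgfrbGFP cells, Bop1 at 45.1 against 2.15, and Galnt16, Zfp263 and Riox1 were also higher, while Pfkm was at 0.232 against 27.5, Ssh3 at 0.466 against 30.3 and P2ry1 at 0.0916 against 18.5. Zscan22 and Rassf5 were lower as well. Between bladder_881s and bladder_515s, Spry2, a feedback inhibitor of growth factor receptors, was at 81.3 against 4.77 and Bcl6, a transcriptional repressor, at 50.5 against 2.48. Igfbp5 was at 21.7 on bladder_881s, 1.55 on bladder_074s and 0.0626 on bladder_515s in PdgfrbGFP cells, and at 203.1 in the 13 PdgfraGFP cells. Cxcl14, a chemokine, was likewise at 584 in PdgfraGFP cells of cluster 3 and at 13.98 to 133.8 in the others, so that neither gene kept its sign against the compared clusters.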

How the data were processed

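Single cells from the bladders of adult male mice were sequenced by Smart-seq2 as single reads with ERCC spike-ins. Per the labels and the study's methods, the authors demultiplexed with bcl2fastq, trimmed the reads, aligned them to GRCm38 (mm10) with TopHat2 on Bowtie1 or Bowtie2, and counted them per gene with featureCounts of the Subread package. The annotation release and strand setting are not given in the sources used here. The deposited values are raw read counts of 46517 genes and 92 spike-ins in 1479 cells that the authors had filtered and clustered, and the cluster numbers are those of the labels. Gene names were matched to GENCODE M21 for 46005 identifiers, and 118 genes share a symbol with another.

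Counts of each cell were divided by its reads of mouse genes and multiplied by 500000. Levels were averaged over cells within groups of plate and line holding at least 5 cells of each class, and differences used a pseudocount of 1. A gene entered at an average level of at least 5 and was called higher or lower when its sign was the same in every group and its median difference at least 2-fold. No test was made between clusters, because the clusters were cut from the same counts, nor between lines or plates, because no animal is named. Shares of cells with a read came from cells thinned at random to 50000 reads, which 2 cells of cluster 3 did not reach. Doublets were not called here.

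The genes named were Edn3, the 15 largest differences in each direction, the 5 largest in each direction against each single cluster, members of 36 gene lists past the rule with up to 4 others of the highest level, the 5 genes most like Edn3, the 8 most variable genes and the largest ratios between lines and plates. A few genes are not reported here and were left out of the lists and of the largest differences. Further genes were named after their values had been seen: Enpp1, Stc2, Piezo1, Kdr, Flt1, Tek, Pecam1, Mbp, Cxcl14, genes at the ends of a range, and the genes with the most negative correlation with Edn3. The cells, lists and rules were chosen with earlier results of these data known. Counts of all genes past the rule against single clusters had been planned and are not given, as they depend on the number of cells in each cluster. The counts given against single clusters cover only the genes with the largest pooled differences.

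Alternatives were other pseudocounts, level limits, scalings (TMM in edgeR 4.0.16, median of ratios), thinned cells, cells of 100000 to 400000 reads, other weightings of clusters, units of plate or line, and each group left out in turn. Cells of cluster 3 had 49365 to 1433400 reads, which limits what can be seen of genes with few reads. The scripts ran on Python 3.11.15 with numpy 2.4.6, scipy 1.17.1, pandas 2.3.3 and matplotlib 3.10.9 and on R 4.3.3, and were tested on simulated data.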

Additional observations from a re-analysis of the deposited data

Results flagged for a closer look

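Of 30 measures searched over the 6 groups, 2 had a group that stood apart from the others. The usual rate of about 1 in 20 need not hold here, as 28 of the measures were genes chosen from these data. The log2 difference of Ackr2 was 1.43 in Acta2GFP cells of bladder_515s and between 2.08 and 2.45 in the other groups. The log2 difference of Gpr20, an orphan receptor, was 5.29 in the same Acta2GFP group, where its compared level was 0.189, and between 0.05 and 1.64 elsewhere. Why this group stood apart was not tested.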

How the results depend on the processing

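The Edn3 difference of 2.00 ran from 1.75 to 2.25 when each group was left out in turn. Of 1180 values of 59 other named genes under 20 settings, 30 moved by more than the SD between groups. As most were named for having 1 sign in every group, their sign says nothing of stability. Without the fold limit, 4.37% of genes were higher and 3.59% lower with TMM. The shares of genes past the rule were less stable. Genes higher by the rule made up 0.292%, but 0.115% (11 genes) with a pseudocount of 10, 0.343% (16 genes) at a level of at least 20, 0.461% with compared clusters weighted equally and 0.801% with 1 unit per line. Genes lower by the rule made up 1.5%, but 0.668% with a pseudocount of 10, 1.77% at a level of at least 1, where more genes were measured, 1.05% (49 genes) at a level of at least 20 and 2.62% with 1 unit per line. Genes higher in every unit, 3.25% of all, made up 5.46% with at least 20 cells of each class, 5.18% per plate and 7.33% per line, and genes lower in every unit, 5.4% of all, 6.04% at a level of at least 20, 8.61% per plate and 13.25% per line. Fewer units make the same sign easier to reach. With groups left out in turn these shares ran from 0.334% to 0.493%, 1.58% to 1.86%, 4.32% to 5.46% and 7.19% to 8.1%. Leaving out PdgfrbGFP cells of bladder_074s, bladder_515s or bladder_881s gave 0.493%, 0.469% and 0.484% higher by the rule. Without the Acta2GFP, C57BL6, PdgfraGFP or bladder_515s PdgfrbGFP group, 4.97%, 4.93%, 5.46% and 5.19% were higher in every group, and without the first or last of these 8.1% and 8.08% were lower. Hedgehog members past the rule numbered 2, 0 with a pseudocount of 10 and 1 with thinned cells. With all fibroblast clusters as the whole, cluster 3 made up 25.5% of all cells and 31.6% of Acta2GFP cells. The Edn3 share was 65.6% at 5 or more reads and 85.5% with all reads. At 4-fold, 3.12% of genes differed between the lines of bladder_515s, and 2.12%, 0.744% and 5.75% between bladder_074s and bladder_515s, bladder_074s and bladder_881s, and bladder_881s and bladder_515s. With all reads, 6 of the 8 most variable genes were among the first 8. By replicate number, no paired analysis was possible because these numbers only count cells within a cluster. Cluster 3 and the compared cells were instead paired by plate and line, and no test was made as the clusters were cut from the same values. The cause of each move was not tested.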
